A study of Homo sapiens with 2 samples.

Results

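The BCL2 family decides whether a cell enters apoptosis through its mitochondria, and 10 of its genes were described here from the RNA-seq of Molm13 cells. The members were fixed by name, as the rows of the expression table with the gene names BCL2, BCL2L1, MCL1, BCL2A1, BAX, BAK1, BBC3, PMAIP1, BCL2L11 and BID. All 10 names were found among the 50868 genes of the table, and all 10 reached 10 reads when both libraries were added, as did 15384 genes in total, which are called the tested genes although no test was run. Molm13 is a human acute myeloid leukemia (AML) line with a KMT2A fusion, grown in RPMI-1640 with fetal bovine serum. The study has 1 library from cells with a control vector (Vector) and 1 library from cells given an UNC5B overexpression construct (OE-UNC5B). According to the methods, UNC5B was carried by a lentivirus under the CMV promoter, with a FLAG tag and mCherry, and infected cells were selected with puromycin. What the control vector carried is not given in the sources used here.

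The table holds raw read counts per gene and FPKM, which are reads divided by gene length and by the counted reads of the library. Counted reads amounted to 13715566 in Vector, and 15637137 in the one labelled OE-UNC5B. UNC5B, which encodes a netrin receptor, was listed with 0 reads in each library, under a floor of 3 reads (0.219 and 0.192 CPM, which scales reads to a fixed library total), so the direction of every difference rests on the labels. Of 12 AML markers, 9 had at least 10 reads in all, among them CD33 (1775 and 2299 reads) and FLT3 (4067 and 6395 reads), while the stem cell marker CD34 had 0 in both. MPO, a myeloid granule enzyme, had 3363 reads in Vector and 1553 in the other library, and its part in the results was not tested. Of 12 markers of T, B, red, endothelial, fibroblast and epithelial cells, 2 had at least 10 reads in all, and the list summed to 90 and 114 reads. With 1 library per group there is no replicate check. No p-value is given, and each interval is a 95% interval that covers counting error only.

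In this family, pro-survival proteins such as BCL2 and MCL1 hold the effectors BAX and BAK1 in check. BH3-only proteins respond to stress by binding the pro-survival proteins or by activating the effectors, which then permeabilize the outer mitochondrial membrane and release cytochrome c. AML cells commonly depend on BCL2 or MCL1, and BCL2 is the target of the drug venetoclax. The study measured chemosensitivity and apoptosis of these cells with other assays, which were not analysed here, so the comparison asks how the RNA of the family differed between the libraries.

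The members past 2-fold were both BH3-only genes, and they differed in opposite directions. BCL2L11 (BIM) was higher and PMAIP1 (NOXA) was lower in the library labelled OE-UNC5B. The sequences before their transcription starts, where regulators of transcription can bind, are shown because these genes differed the most among the members. They are from RefSeq on GRCh38.p14, on the plus strand, 5′ to 3′. Capitals mark GTAAACA (a forkhead motif) and GGGCGG (a GC box) in BCL2L11, and TGACGT (the core of the cAMP response element, bound by CREB and ATF factors) and GGGCGG in PMAIP1, on either strand. The BCL2L11 window is chr2:111120664-111120913, the 250 bases before the RefSeq start at 111120914, and lies inside the gene of the deposited table, which begins at 111119378. The PMAIP1 window is chr18:59899746-59899947, the first 202 of the 250 bases before the RefSeq start at 59899996, which ends right before the gene start of 59899948 in the deposited table.
BCL2L11: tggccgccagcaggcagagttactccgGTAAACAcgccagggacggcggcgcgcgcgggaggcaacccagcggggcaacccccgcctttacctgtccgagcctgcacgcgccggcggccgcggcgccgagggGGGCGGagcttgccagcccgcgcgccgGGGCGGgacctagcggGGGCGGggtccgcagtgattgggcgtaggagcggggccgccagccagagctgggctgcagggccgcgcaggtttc
PMAIP1: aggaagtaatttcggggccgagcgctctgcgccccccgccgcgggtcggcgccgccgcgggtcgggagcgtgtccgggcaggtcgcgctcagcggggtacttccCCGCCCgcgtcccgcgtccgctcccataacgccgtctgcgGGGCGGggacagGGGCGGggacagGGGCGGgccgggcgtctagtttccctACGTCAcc

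Motifs were searched on both strands of the 250 bases before each start, in the 13 of 17 family genes (9 of the 10 members, 20 starts) that the RefSeq table holds. GTAAACA was present at 1 of these genes, BCL2L11, from 223 to 217 bases before the start, against 2.98% of 35116 promoters. TGACGT was present at PMAIP1, where it reads ACGTCA on the plus strand from 56 to 51 bases before the RefSeq start, and at BAD, against 7.1% of promoters. GGGCGG, which can overlap other GC-rich motifs, was present at 13 of the 20 family promoters, from 9 genes, against 42.6% of promoters, with 3 matches at BCL2L11 and 4 at PMAIP1. CACGTG, the E-box bound by MYC and related factors, was present at BAX, BBC3 and BID, with 4 matches at BAX, against 6.34%. TGATGNAA, the C/EBP-ATF composite motif, was present at BCL2A1 and HRK against 3.14%, and CCAAT at 8 of the 20 family promoters, from 7 genes, against 32%. These matches are descriptions of the letters in the window and not binding sites.

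The pro-survival members are described first. BCL2, on chromosome 18 from 63123346 to 63320128 on the minus strand, had 4274 reads (19.2 FPKM) in Vector, and 8394 reads (33.0 FPKM) in the one labelled OE-UNC5B. Scaled by TMM, its log2 ratio was 0.74 (0.68 to 0.79 from the reads), a 1.67-fold higher level. BCL2 thus lay under the 2-fold threshold but was the most abundant member by deposited FPKM in the library labelled OE-UNC5B. A larger ratio was found for 1387 of the 15384 tested genes. MCL1, a short-lived pro-survival protein, had 3151 and 3476 reads (24.1 and 23.4 FPKM) and a log2 ratio of -0.10 (-0.17 to -0.03). With library totals in place of TMM the interval for MCL1 was -0.12 to 0.02, so no difference of MCL1 was detectable once the scaling was changed. BCL2L1, which encodes BCL-XL, had 225 and 312 reads (2.32 and 2.83 FPKM) and a log2 ratio of 0.23 (-0.02 to 0.49). The interval for BCL2L1 spanned 0 with TMM but began at 0.03 with library totals. BCL2A1 (BFL-1), a target of NF-kB, had 24 and 43 reads (0.950 and 1.49 FPKM), and its interval of -0.15 to 1.39 around a log2 ratio of 0.59 left its direction undetermined at this depth.

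Both effectors had lower levels in the library labelled OE-UNC5B, by less than 2-fold. BAX had 1661 reads (20.6 FPKM) in Vector and 1726 reads (18.8 FPKM) in the larger library labelled OE-UNC5B, a log2 ratio of -0.18 (-0.28 to -0.08). BAK1, which sits at the outer mitochondrial membrane also in healthy cells, had 863 and 714 reads (16.3 and 11.8 FPKM) and a log2 ratio of -0.51 (-0.66 to -0.37). BAX and BAK1 kept these sides with library totals and with DESeq2 size factors. With the median of its bin of GC content subtracted, BAX was at -0.05, so the lower level of BAX was not detectable with this step, and BAK1 was at -0.38. The ratio of BAX to BAK1 reads went from 1.92 to 2.42, a change of 1.26 (1.11 to 1.42), which does not depend on the scaling.

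The BH3-only members gave the largest differences. BCL2L11, on chromosome 2 from 111119378 to 111168447, encodes BIM, which binds all main pro-survival proteins. It had 95 reads (0.455 FPKM) in Vector, and 389 reads (1.63 FPKM) in the one labelled OE-UNC5B. Its log2 ratio was 1.79 (1.47 to 2.14), a 3.46-fold higher level, and 211 tested genes had a larger ratio. From FPKM with 1 added, a step that shrinks the ratios of genes at low FPKM, the log2 ratio of BCL2L11 was 0.86, under 2-fold. BCL2L11 remained among the 2 lowest members by FPKM in both libraries. PMAIP1, on chromosome 18 from 59899948 to 59904306, encodes NOXA, which binds MCL1 and BCL2A1. It had 1449 reads (26.3 FPKM) in Vector, and 604 reads (9.62 FPKM) in the one labelled OE-UNC5B. Its log2 ratio was -1.50 (-1.64 to -1.36), a 2.83-fold lower level, and 344 tested genes had a smaller ratio. BBC3 (PUMA), which binds the pro-survival proteins, had 311 and 529 reads (3.89 and 5.80 FPKM) and a log2 ratio of 0.53 (0.32 to 0.74). BID, which caspase-8 cleaves to link death receptors to mitochondria, had 1079 and 948 reads (6.95 and 5.36 FPKM) and a log2 ratio of -0.42 (-0.55 to -0.30). BBC3 and BID were thus on opposite sides of 0, and neither reached 2-fold.

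**Figure D1:**
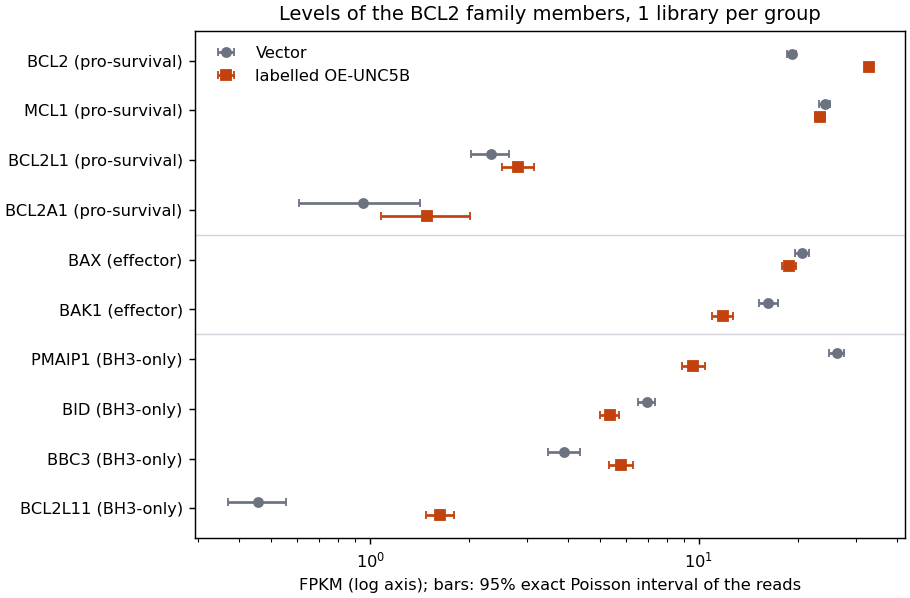
FPKM of the 10 members (log axis) with Vector as circles and the library labelled OE-UNC5B as squares, with bars for the exact 95% Poisson interval of the reads and lines between the roles. PMAIP1 went from 26.3 to 9.62 FPKM, BCL2 from 19.2 to 33.0 FPKM and BCL2L11 from 0.455 to 1.63 FPKM.

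Of the 10 members, 1 was higher and 1 lower by at least 2-fold. Among all tested genes, 5.15% were higher and 4.79% lower by at least 2-fold, 9.94% in either direction, and of genes with at least 50 reads in all 5.34% were past 2-fold. The interval from the reads lay above 0 for 3 members and below 0 for 5, against 25.1% and 26.3% of all tested genes. These shares are not like for like, because deeper genes have narrower intervals. The members had a median of 971 and 659 reads, against 269.5 and 316 for all tested genes. With 10 members, each gene makes up 10% of the list. The median log2 ratio of the members was 0.07, and that of all tested genes -0.01. The plot of the members among all tested genes shows BCL2L11 and PMAIP1 outside the 2-fold lines and the other 8 members inside them.

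**Figure D2:**
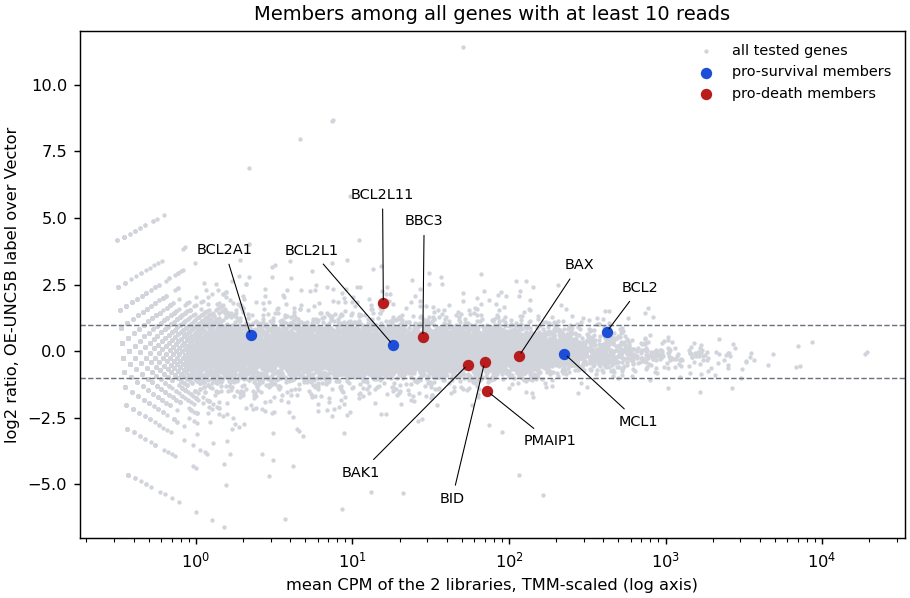
Log2 ratio of the library labelled OE-UNC5B over Vector against the mean TMM-scaled CPM (log axis) for the 15384 genes with at least 10 reads (grey), with pro-survival members in blue and pro-death members in red. Dashed lines mark 2-fold, and BCL2L11 (1.79) and PMAIP1 (-1.50) lie beyond them.

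Levels were compared between members per length, as FPKM. In Vector the order was PMAIP1, MCL1, BAX, BCL2, BAK1, BID, BBC3, BCL2L1, BCL2A1 and BCL2L11. The Poisson intervals of PMAIP1 and MCL1 overlapped, as did those of BAX and BCL2, and the other neighbours were apart. In the library labelled OE-UNC5B the order was BCL2, MCL1, BAX, BAK1, PMAIP1, BBC3, BID, BCL2L1, BCL2L11 and BCL2A1, with overlap between BBC3 and BID and between BCL2L11 and BCL2A1. The order between genes depends on the length used. The lengths behind the FPKM were 1.29 to 2.56 times the merged exons of GENCODE 44, and 5865 against 2587 bases for BAX. Per kilobase of merged exons, BAX (42.7) and BCL2 (42.6) were level in the library labelled OE-UNC5B, and BAX (46.8) came right after PMAIP1 (48.3) in Vector.

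The balance of pro-survival and pro-death members was compared within each library, where no scaling between libraries enters. The 4 pro-survival members summed to 7674 reads and the 6 pro-death members to 5458 reads in Vector, a ratio of 1.41. In the library labelled OE-UNC5B the sums were 12225 and 4910 reads, a ratio of 2.49. The ratio was therefore 1.77 times that of Vector (1.69 to 1.86, exact conditional interval). By summed FPKM it was 0.625 in Vector, and 1.14 in the one labelled OE-UNC5B, a change of 1.83. Sums follow the abundant genes. Without BCL2 the change in the read ratio was 1.25 (1.18 to 1.33), and without PMAIP1 it was 1.48 (1.41 to 1.56). BCL2 and PMAIP1 thus carried much of this change, and these omissions were chosen after seeing the data.

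A total of 8 pairs of members were compared, and those with known binding gave a mixed picture. The ratio of BCL2 to BAX by FPKM was 0.929 in Vector, and 1.75 in the one labelled OE-UNC5B, and the read ratio changed 1.89-fold (1.75 to 2.04). PMAIP1 to MCL1 went from 1.09 to 0.412 by FPKM, a change to 0.378 of the Vector value (0.339 to 0.421). BCL2L11 to MCL1 went from 0.0189 to 0.0700 by FPKM, a 3.71-fold change (2.94 to 4.72). BCL2L11 to BCL2 went from 0.0237 to 0.0495, a 2.08-fold change (1.66 to 2.65), so BCL2L11 differed by more than BCL2 did. BCL2L11 against PMAIP1, both BH3-only genes, sets the member with the highest ratio over that with the lowest, and its ratio was 9.82 times that of Vector (7.66 to 12.7).

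The make-up of each role differed between the libraries. MCL1 made up 51.8% of the summed pro-survival FPKM in Vector, and 38.5% in the one labelled OE-UNC5B, while BCL2 made up 41.2% and 54.4%. Among the BH3-only members, PMAIP1 made up 70.0% in Vector and 42.9% in the other library. BBC3 went from 10.3% to 25.9% and BCL2L11 from 1.21% to 7.29% of that sum, which itself was 37.6 and 22.4 FPKM. A share depends on the other members of its sum, so a larger share of BID (18.5% and 23.9%) stood beside a lower level of BID.

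**Figure D3:**
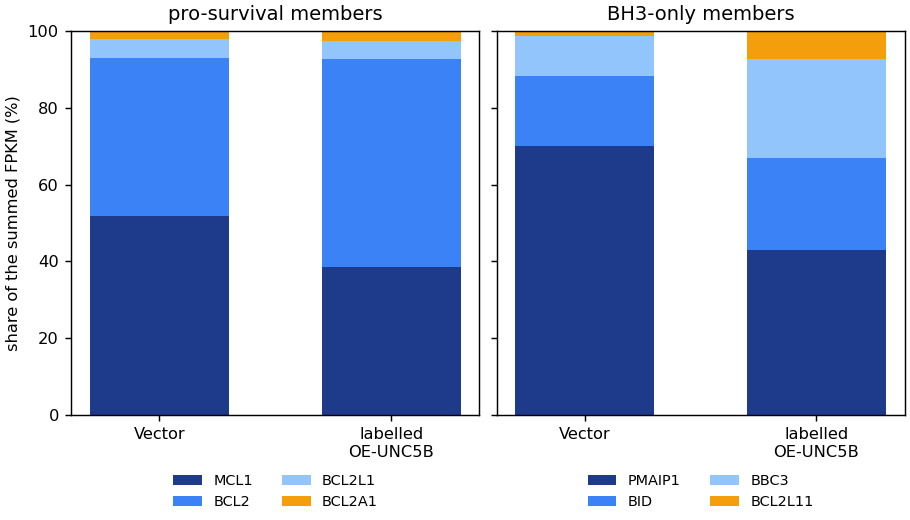
Share of the summed FPKM (%) taken by each of the 4 pro-survival members (left) and the 4 BH3-only members (right) for each library. BCL2 takes the larger pro-survival share in the library labelled OE-UNC5B (54.4%), and PMAIP1 goes from 70.0% to 42.9% of the BH3-only sum.

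The other genes of the same roles were BCL2L2, BCL2L10, BOK, BAD, BMF, BIK and HRK. BCL2L2, which encodes the pro-survival protein BCL-W, had 129 reads in Vector, and 647 in the one labelled OE-UNC5B, a log2 ratio of 2.08 (1.81 to 2.37). This value is uncertain, because BCL2L2 shares 815 exonic bases with the readthrough gene BCL2L2-PABPN1 on the same strand, which had 156 and 163 reads. With the reads of both genes summed, the log2 ratio of BCL2L2 with BCL2L2-PABPN1 was 1.27 (1.07 to 1.47), still past 2-fold. BMF, a BH3-only gene, had 501 and 802 reads and a log2 ratio of 0.44 (0.28 to 0.61). BIK and BAD, also BH3-only genes, had log2 ratios of -0.65 (-0.98 to -0.33) and -0.41 (-0.74 to -0.07), and BAD shares 23.7% of its exonic bases with GPR137 on the opposite strand (82 and 80 reads). HRK had 16 and 34 reads with an interval spanning 0, and BCL2L10 and BOK had 0 reads in both libraries. Of the 8 BH3-only genes, 1 was past 2-fold in each direction, against 5.15% higher and 4.79% lower of all tested genes, and their median log2 ratio was 0.02, and -0.05 from FPKM with 1 added.

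**Figure D4:**
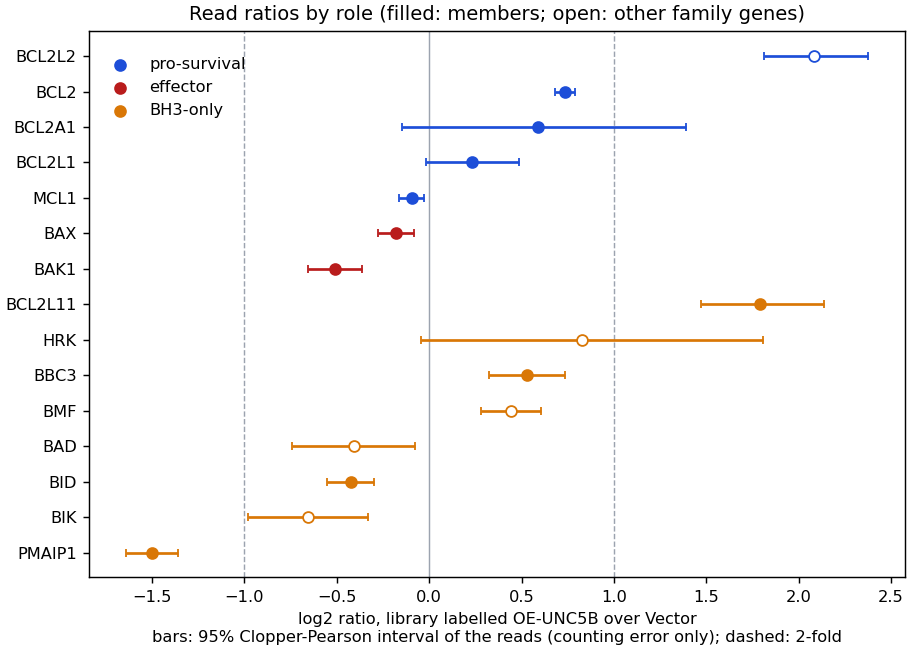
Log2 ratio of the library labelled OE-UNC5B over Vector for the 15 family genes with at least 10 reads, in order of role and ratio, with bars for the 95% Clopper-Pearson interval of the reads. Filled points are members and open points other family genes. BCL2L2 (2.08) and BCL2L11 (1.79) lie to the right of the dashed 2-fold lines and PMAIP1 (-1.50) to the left.

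Overlapping genes limit some members, since the use of strand in counting is not given in the sources used here. BCL2L11 shares 10.8% of its exonic bases with MIR4435-2HG on the opposite strand, which had 152 and 192 reads. BCL2L1 shares 41.3% of its exonic bases with ABALON on the opposite strand, which had 0 reads in both libraries. MCL1 shares 328 bases with ADAMTSL4-AS1 on the same strand, which had 8 and 6 reads, and 43 bases with ADAMTSL4 on the opposite strand, which had 418 and 734 reads. For PMAIP1, BCL2, BAX, BCL2A1 and BID, no exonic base was shared with another gene of GENCODE 44.

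Genes around the family were taken from 7 further lists of 71 genes, of which 67 had at least 10 reads. By at least 2-fold, 3 of the 67 were higher and 2 were lower, against the 5.15% and 4.79% of all tested genes. In the list of apoptosome and mitochondrial release genes, 0 of 10 were past 2-fold, but the intervals of 9 lay below 0, against 26.3% of all tested genes, and the median log2 ratio was -0.36. Intervals narrow with depth, and these genes had a median of 1488.5 and 1321.5 reads, against 269.5 and 316 for all tested genes. Cytochrome c (CYCS), which BAX and BAK1 release, had the most reads of them when both libraries were added, with 6097 and 4409 reads and a log2 ratio of -0.70 (-0.76 to -0.65). Among 7 caspases, CASP2 was lower, with 1029 and 566 reads and a log2 ratio of -1.10 (-1.25 to -0.95).

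Among the 5 inhibitors of apoptosis with at least 10 reads, XIAP, an inhibitor of caspases, was past 2-fold, and the intervals of 3 lay above 0 and of 1 below 0, against 25.1% and 26.3% of all tested genes. XIAP had 87 reads (0.249 FPKM) in Vector, and 453 (1.14 FPKM) in the one labelled OE-UNC5B, a log2 ratio of 2.14 (1.81 to 2.49). Like BCL2L11, it was at low FPKM, where adding 1 to the FPKM shrinks the ratio. BIRC5 (survivin), the one below 0 and named after its values were seen, had 505 and 472 reads and a log2 ratio of -0.33 (-0.52 to -0.15). The 10 genes of death receptors and their adaptors had a median log2 ratio of 0.00, with 0 past 2-fold. TNFRSF10B, a receptor for TRAIL, had the most reads of that list, with 2163 and 3501 reads and a log2 ratio of 0.46 (0.38 to 0.54). The 7 tested BCL2-like and BNIP genes had a median of 0.17 and 0 past 2-fold. BNIP2 had the most reads there, with 1393 and 1841 and a log2 ratio of 0.17 (0.06 to 0.27).

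The list on protein stability holds genes that act on the stability of family proteins, mostly parts of the ubiquitin system. Its 9 genes had a median log2 ratio of 0.30, and 1 was higher by at least 2-fold, against 5.15% of all tested genes. TRIB3, a stress-induced pseudokinase, had 906 and 3186 reads and a log2 ratio of 1.58 (1.47 to 1.69). Of 19 transcription factors known to act on family genes, 1 was higher and 1 lower by 2-fold, near the 5.15% and 4.79% of all tested genes, with a median of 0.04. REL, an NF-kB subunit, had 209 and 607 reads (1.20 and 3.06 FPKM), a 2.46-fold higher level with a log2 interval of 1.07 to 1.53. Its ratio would also shrink with 1 added to the FPKM. TP73, a transcription factor, had 38 and 18 reads and a log2 ratio of -1.29 (-2.21 to -0.47).

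A few more factors, which are among the known regulators of BCL2L11, PMAIP1 or BBC3, were named after their values were seen. FOXO3, a forkhead factor known to act on BCL2L11, had 1057 and 2074 reads and a log2 ratio of 0.74 (0.63 to 0.84). ATF4, known to act on PMAIP1, had 4993 and 10509 reads and a log2 ratio of 0.84 (0.79 to 0.89), on the opposite side of 0 from PMAIP1. DDIT3 (CHOP), known to act on BCL2L11 and BBC3, had 82 and 164 reads and a log2 ratio of 0.76 (0.37 to 1.16). None of these 3 factors reached 2-fold. They were picked from the 19, of which the intervals of 6 lay above 0 and of 3 below 0, against 25.1% and 26.3% of all tested genes. Others of the list were E2F1 at -0.32 (-0.45 to -0.19), FOXO1 at 0.53 (-0.34 to 1.47) and CREB1 at -0.07 (-0.33 to 0.19). Whether any factor acted on these genes here was not tested.

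**Figure D5:**
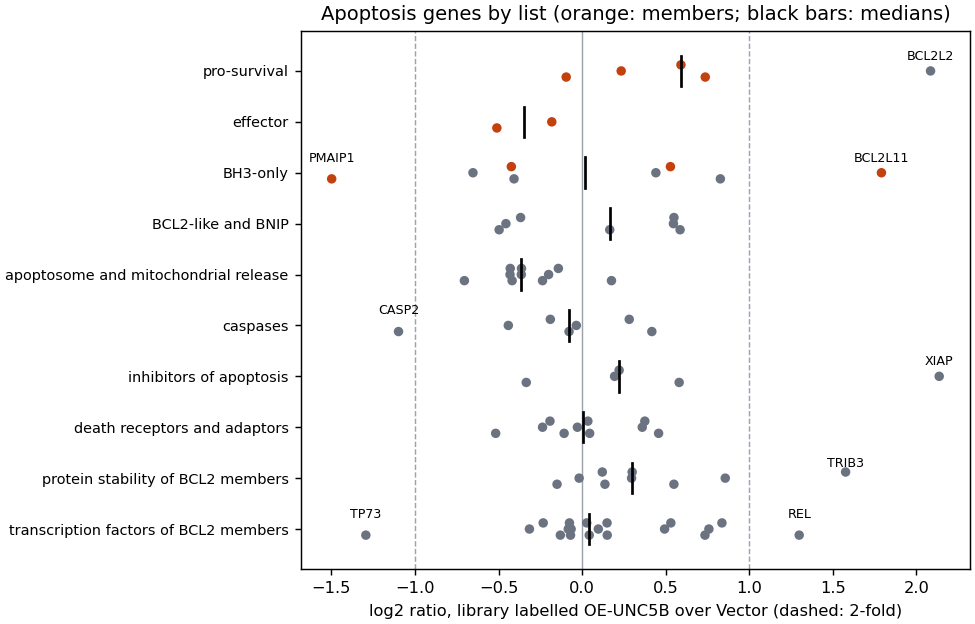
Log2 ratio of the library labelled OE-UNC5B over Vector for the tested genes of the 3 family roles and 7 further apoptosis lists, with members in orange, other genes in grey and medians as black bars. Genes beyond the dashed 2-fold lines are named, among them XIAP (2.14), TRIB3 (1.58) and CASP2 (-1.10).

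Ratios also moved with gene length and GC content over all tested genes. In 10 bins of length, the median log2 ratio was -0.09 for the shortest and 0.19 for the longest genes, and in 10 bins of GC content it was 0.15 for the lowest and -0.16 for the highest. BCL2, in the bin of the longest genes, had a log2 ratio of 0.55 after the median of its length bin was subtracted. HUWE1, FBXW7 and USP9X of the protein stability list were in that bin too. They were at 0.86, 0.30 and 0.55 before this step and at 0.67, 0.11 and 0.36 after it. After the same step BCL2L11 was at 1.71 and PMAIP1 at -1.40, and with GC bins they were at 1.79 and -1.65. This subtraction was chosen after seeing the data.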

How the data were processed

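Total RNA of Molm13 cells was sequenced, with 1 library per group. The methods name the VAHTS Universal V6 kit, an Illumina HiSeq instrument with single-end reads and GRCh38, and the submitters' processing notes list bcl2fastq 2.19, HISAT2 2.0.4 and StringTie 1.3.0 without their roles. Which program counted the reads, on which annotation and with which strand setting is not given in the sources used here. The deposited table holds unnormalized counts for each gene. The deposited FPKM are relative to each library's total of counted reads, since the ratio of count to FPKM between libraries lay from 1.139 to 1.140 against a ratio of totals of 1.140.

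Counts were scaled by TMM (edgeR 4.0.16, R 4.3.3), with factors of 0.984 and 1.02, and log2 ratios used 0.5 added reads. The background was every gene with a summed count of at least 10, and differences of 2-fold or more were called. Because there was 1 library per group, edgeR's quasi-likelihood test could not be fitted and no p-value is given. Intervals at 95% are Clopper-Pearson for read ratios, Poisson for levels and conditional exact for ratios of ratios (scipy 1.17.1). They cover counting error only, and with 1 library per group they leave out differences between replicates. Reads without molecular identifiers are not independent molecules, so the intervals may be too narrow even for counting error. The median depth of a tested gene was 269.5 reads in Vector, against 316. The interval and call procedure was run on simulated counts with Poisson error only, the error that these intervals assume. That simulation held no variation between replicates, so it cannot tell how well the calls would repeat.

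The members and lists were chosen with earlier results of these data known. The rule for named genes took all members, UNC5B, the other family genes of the 3 roles and, from each further list, genes past 2-fold with at least 50 reads or else the gene with the most reads. Likeness of pattern to other genes was not computed from 2 libraries. Merged exon lengths and overlaps came from GENCODE 44, which holds 49659 of the gene identifiers, and GC content from its longest transcripts (98.8% of tested genes). Promoters came from RefSeq (GRCh38.p14). The values of 1 gene of the lists and of 1 searched motif are not reported here. As alternatives, counts were scaled by library totals or by size factors from DESeq2 1.42.0, and the rest were FPKM with 0.1 or 1 added, 2 added reads, other read minimums and folds, and omitted members.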

Additional observations from a re-analysis of the deposited data

How the results depend on the processing

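No paired analysis was possible because each group had a single library, so no replicate could be omitted. The 10 members kept their sign under all 7 alternatives run on them. The value of BCL2L11 ranged from 0.86, with FPKM and 1 added, to 1.84, and that of PMAIP1 from -1.65 to -1.36. The counts of members past 2-fold changed under 3 alternatives. FPKM with 1 added left 0 higher members, beside 161 higher genes of the 15384 tested. A threshold of 1.5-fold gave 3 higher members, beside 1989 higher genes. A threshold of 4-fold gave 0 higher and 0 lower members, beside 154 and 177 genes. The 792 higher and 737 lower genes of the whole table changed by more than 1.5 times under 6 alternatives. FPKM with 0.1 added gave 430 lower, and FPKM with 1 added gave 161 higher and 123 lower. A threshold of 1.5-fold gave 1989 higher and 1925 lower, and 4-fold gave 154 and 177. A minimum of 1 read gave 2886 higher and 3079 lower, and one of 50 reads gave 359 and 297, from a different number of genes. The pro-survival to pro-death ratio changed 1.77-fold, and 2.15-fold without MCL1, 1.90-fold without BAX, 1.25-fold without BCL2 and 1.48-fold without PMAIP1, by construction from the members left out. The cause of the other changes was not tested. Of the list medians, that of the BH3-only genes lay between -0.05 and 0.06 over the 5 alternatives run on it, and the medians of the other lists kept their sign. Depth limits BCL2A1 and HRK, whose intervals spanned 0.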
